A study of Mus musculus with 24 samples.

Results

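In this series 10 genes of the blood vessel wall and of the apelin system were followed through 6 groups of mouse adrenal glands. They are Apln and its receptor Aplnr, the growth factor Vegfa, the receptors Kdr, Flt1 and Tek, and the endothelial surface genes Cdh5, Pecam1, Emcn and Plvap. They were picked by symbol from the 21957 genes that had a probe set of their own on the array, and 1 probe set stood for each. Earlier results of these data were known when the members were picked. All 10 passed the filter for dim signals. The study measured RNA of whole adrenal glands of mice of 7 months on a mixed sv129-C57Bl/6 background, with 4 arrays in each group. The titles call the 4 arrays biological replicates. All knockout (KO) mice, female, intact male and gonadectomised male, were Prkar1a fl/fl;cre/+;mTmG/mTmG, where mTmG is a fluorescent reporter of Cre activity and Cre, per the series title, sits in the locus of Cyp11b2. Cyp11b2 encodes aldosterone synthase of the zona glomerulosa, so Cre is driven by a gene of steroid-producing cells and not of the vessels. The controls (WT) differed between groups: WT females were Prkar1a fl/+;cre/+;mTmG/mTmG and WT intact males Prkar1a fl/fl;+/+;mTmG/mTmG, which lack Cre. Among the gonadectomised (GDX) WT males, operated during the last 2 months, array 1 was Prkar1a +/+;+/+;mTmG/mTmG, array 2 Prkar1a +/+;cre/+;mTmG/+, array 3 Prkar1a +/+;cre/+;mTmG/mTmG and array 4 Prkar1a fl/+;cre/+;mTmG/mTmG. A difference between WT groups therefore holds the genotype of the controls as well as the sex or the operation, and these cannot be told apart. The same holds when the change from WT to KO is compared between groups.

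The adrenal cortex is one of the most densely vascularised tissues, with fenestrated capillaries beside nearly every steroid-producing cell. Steroidogenic cells secrete VEGF-A, which acts on endothelial cells through KDR (VEGFR2), while FLT1 (VEGFR1) binds the same ligand and limits its action; TEK (TIE2) is the angiopoietin receptor that keeps vessels stable. Apelin is a secreted peptide, made by sprouting endothelial tip cells and by some other cells, that signals through the G protein-coupled receptor APLNR. Protein kinase A is held inactive by regulatory subunits, of which Prkar1a encodes one.

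The data show 2 patterns among these genes. Apln was the member that changed most: its signal was higher in KO than in WT females and GDX males, and lower in WT females than in WT intact males. The other genes moved by less than 1 log2 unit, and most stood highest in the KO intact males: 8 of the 10 members had their highest group mean there, and Cdh5 and Plvap had theirs in WT females. A gene is called here when its adjusted p, from 1 limma model over all 24 arrays and Benjamini-Hochberg adjustment over the 14411 genes tested, is under 0.05. All levels below are log2 RMA signals, and all changes are differences of log2 signals ± their standard error.

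Prkar1a, the targeted gene, was lower in KO than in WT arrays by 1.43 ± 0.23 (log2) in females (adjusted p 5.83e-05), and the GDX males changed by -1.19 ± 0.23 (adjusted p 0.00477). The intact males gave -0.92 ± 0.23 (adjusted p 0.16), with KO signals of 6.89, 8.08, 8.47 and 8.13 in arrays 1 to 4 and WT signals of 8.72 to 8.91. Without KO intact male array 1, the lowest, the difference was -0.59 (adjusted p 0.411), and without array 3, the highest, it was -1.12 (adjusted p 0.0498); these values without an array were added after the data had been seen. The tissue label was checked against 9 markers of steroidogenic cells, whose mean level over the list lay between 11.70 and 12.11 in all arrays. Some arrays stood apart. WT intact male array 1 was the lowest of its group for 9 of the 10 members, and the mean over the 7 endothelial genes (the members without Vegfa, Apln and Aplnr) was 8.74 there against a group median of 9.18. KO intact male array 4 was likewise the lowest of its group for 9 members. KO GDX array 2 was the highest of its group for capsule markers (9.02 against a group median of 7.98), macrophage markers (8.15 against 7.34) and Slc4a1 of erythrocytes (6.69 against 5.02). It was also the highest for the mean of the 25 further endothelial genes named below (7.09 against 6.85). The main results of the members that rest on these arrays are given with and without them. Counts of the further lists use all arrays unless stated.

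Apln, the apelin ligand, lies on chrX:48025146-48034853 (GRCm38.p6). In WT females its signals were 5.08, 4.94, 4.995 and 4.91, and in KO females 7.82, 7.49, 7.56 and 8.48. In WT intact males they were 5.89, 7.45, 7.23 and 7.30, and in KO intact males 8.87, 8.20, 8.02 and 7.93. In WT GDX males they were 5.08, 4.42, 5.29 and 5.39, and in KO GDX males 5.76, 5.89, 9.19 and 9.05. In each of the 3 settings the KO arrays lay above the WT arrays without overlap. The WT females and WT GDX males lay near 5, the level used as the limit for dim signals, so the size of a change against them is uncertain. The 4 KO GDX arrays formed a low and a high pair, about 3 log2 units apart, and their mean of 7.47 ± 1.90 (SD, n = 4) lies in the gap between the pairs.

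The change of Apln from WT to KO was 2.85 ± 0.58 in females (adjusted p 0.000671), which is 7.23-fold, and 2.43 ± 0.58 in GDX males (adjusted p 0.0197), which is 5.38-fold. In intact males the difference was 1.29 ± 0.58 (adjusted p 0.63), with a 95% interval of 0.09 to 2.49. The standard error of 0.58 rests on the spread pooled over all 6 groups, and KO GDX males had the widest spread (SD 1.90). The call in GDX males was lost without WT GDX array 2 (2.22, adjusted p 0.0694), without KO GDX array 3 (1.85, 0.093), without KO GDX array 4 (1.90, 0.0949), and when the 2 groups were fitted alone (adjusted p 0.179). Without KO GDX array 2, which stood apart by its capsule and macrophage markers, the change was 2.95 (adjusted p 0.00664). Between the WT groups, Apln was lower in females than in intact males by 1.99 ± 0.58 on the log2 scale (adjusted p 0.0364), and the difference of GDX from intact males was -1.92 ± 0.58 (adjusted p 0.0614). WT females and WT GDX males differed by -0.06 ± 0.58, with a 95% interval of -1.26 to 1.13. Without WT intact male array 1, the lowest of its group, these differences from intact males were -2.34 (adjusted p 0.0166) and -2.28 (adjusted p 0.0274), so the second one then passed the threshold. Without any 1 of the WT females, or without WT intact male array 2, 3 or 4, the WT female difference was no longer called (adjusted p 0.0699 to 0.096).

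**Figure D1:**
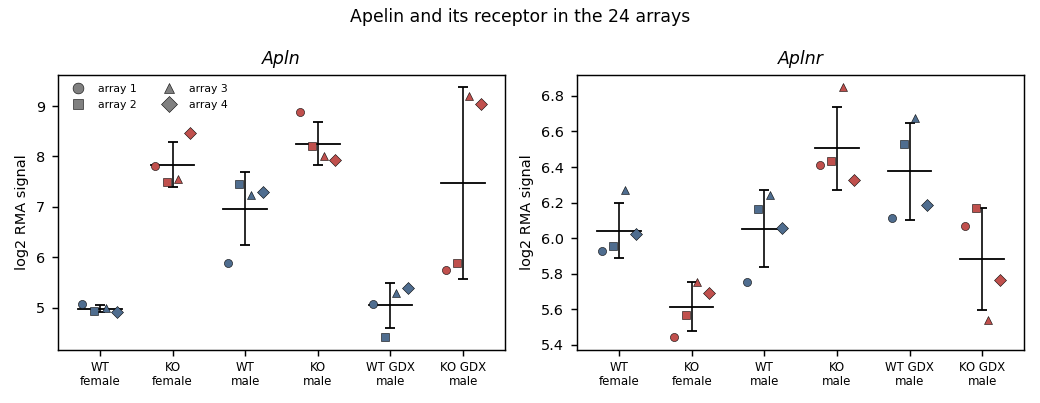
Log2 RMA signal (vertical axis) of Apln and of its receptor Aplnr in each array of the 6 groups (horizontal axis). Blue symbols are WT and red are KO arrays, the symbol's shape gives the array number, and lines and bars give the mean ± SD of 4 arrays. The Apln signals of WT females and WT GDX males sit near 5, and those of KO GDX males split between 5.76 to 5.89 and 9.05 to 9.19.

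Aplnr, the receptor of apelin, is a dim signal of about 5.4 to 6.9. WT females gave 5.93, 5.95, 6.27 and 6.02 and KO females 5.44, 5.57, 5.75 and 5.69, all under the lowest WT female. WT intact males gave 5.75, 6.16, 6.24 and 6.05 and KO intact males 6.41, 6.44, 6.85 and 6.32, all over the highest WT intact male. WT GDX males gave 6.11, 6.53, 6.68 and 6.19 and KO GDX males 6.07, 6.17, 5.54 and 5.76, which overlap in 1 array. The change was -0.43 ± 0.15 in females (adjusted p 0.0317). GDX males gave -0.49 ± 0.15 (adjusted p 0.0638) and intact males 0.45 ± 0.15 (adjusted p 0.428). The change of Aplnr was thus in the direction opposite to that of Apln in females. The female call was lost without WT female array 3 (adjusted p 0.106), WT female array 4 (0.0512), KO female array 1 (0.0884) or KO female array 2 (0.0682). In GDX males a call appeared without KO GDX array 2 (-0.59, adjusted p 0.0457), KO GDX array 1 (-0.55, 0.039) or WT GDX array 1 (-0.58, 0.0403). Apela, the gene of the other peptide ligand of this receptor, gave signals of 2.75 to 3.33 in all 24 arrays and was not tested.

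The regions upstream of the starts of 6 members were at hand (Apln, Vegfa, Emcn, Tek, Kdr and Flt1; RefSeq, GRCm38.p6), as 250 bases before each start. They were searched on both strands for ACGTG (the core of the hypoxia element), TGACG (the core of the cAMP element, through which protein kinase A acts on transcription) and GGAA (the core of ETS factor sites). The sequences of Apln and Vegfa are shown because these genes are the ligands of the 2 systems and their windows lie wholly outside the annotated gene; the other windows reach into the gene. For Flt1 and for the inner start of Vegfa, 30 bases around the only ACGTG or TGACG matches are shown. Each runs 5′ to 3′ on the gene's strand, with the matches in capitals (TTCC is GGAA on the other strand).

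Apln, chrX:48034854-48035103, minus strand: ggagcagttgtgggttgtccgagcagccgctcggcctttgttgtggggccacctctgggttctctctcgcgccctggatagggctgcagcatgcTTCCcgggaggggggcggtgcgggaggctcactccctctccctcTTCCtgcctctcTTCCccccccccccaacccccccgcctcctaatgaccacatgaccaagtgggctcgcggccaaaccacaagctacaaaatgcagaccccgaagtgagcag
Vegfa, chr17:46032378-46032627, minus strand: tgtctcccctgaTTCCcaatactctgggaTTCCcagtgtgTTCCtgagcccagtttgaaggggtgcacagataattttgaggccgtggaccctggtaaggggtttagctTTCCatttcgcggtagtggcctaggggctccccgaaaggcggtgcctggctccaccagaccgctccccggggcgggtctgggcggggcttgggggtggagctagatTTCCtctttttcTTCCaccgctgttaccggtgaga
Vegfa, inner start, chr17:46025356-46025385, minus strand: gagtgcgtgccCACGTCAgagagcaacatc
Flt1, chr5:147726074-147726103, minus strand: gggggacccctTGACGTCActGGAAggagg

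The Apln window holds GGAA at 3 places and neither ACGTG nor TGACG. The Vegfa window at its outer start holds GGAA at 6 places and neither of the others, while the inner start has ACGTG and TGACG overlapping at 211 and 209 bases before it. Flt1 holds the palindrome TGACGTCA, which contains TGACG on both strands, 81 bases before its start; this full element was added to the search after the sequences were seen. Of the 32817 windows in the table, 16.6% hold ACGTG, 17.7% TGACG, 1.55% TGACGTCA and 93.4% GGAA. The Emcn, Tek and Kdr windows hold GGAA only. A match is a stretch of letters and no evidence of binding.

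Vegfa, the gene of the main endothelial growth factor, was lower in KO females than in WT females. WT females gave 10.65, 10.67, 10.62 and 10.59 and KO females 10.38, 10.24, 10.25 and 10.26. WT intact males gave 10.82, 11.04, 10.76 and 10.88 and KO intact males 11.19, 11.07, 11.02 and 10.98. WT GDX males gave 10.63, 10.75, 10.95 and 10.66 and KO GDX males 11.02, 10.45, 10.34 and 10.48. The female groups did not overlap, while 1 KO GDX array was as high as the KO intact males and the other 3 were under all WT GDX males. Vegfa fell by 0.35 ± 0.11 on the log2 scale in KO females (adjusted p 0.0149). GDX males gave -0.18 ± 0.11 (adjusted p 0.38) and intact males 0.19 ± 0.11 (adjusted p 0.742). Without KO GDX array 1 the GDX value was -0.33 (adjusted p 0.0127). Among KO mice, Vegfa was lower in females than in intact males by 0.78 ± 0.11 on the log2 scale (adjusted p 6.26e-06), a 1.72-fold difference with no overlap of the arrays, and lower in GDX than in intact males by 0.50 ± 0.11 (adjusted p 0.00339). Among WT mice the differences were -0.24 ± 0.11 (adjusted p 0.182) and -0.13 ± 0.11 (adjusted p 0.584).

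Kdr, the main signalling receptor of VEGF-A, had its highest values in KO intact males, at 10.02, 9.95, 10.01 and 9.81. WT intact males gave 9.32, 9.61, 9.87 and 9.69, WT females 9.53, 9.30, 9.43 and 9.57, and KO females 9.41, 9.42, 9.41 and 9.35. WT GDX males gave 9.21, 9.52, 9.60 and 9.16 and KO GDX males 9.41, 9.67, 9.51 and 9.56. The KO intact males were above all KO females and all KO GDX males, and overlapped the WT intact males. Flt1, which binds VEGF-A without much signalling, gave 9.15, 9.02, 9.13 and 8.84 in KO intact males against 8.49, 8.87, 8.84 and 8.79 in WT intact males. It gave 8.52, 8.57, 8.58 and 8.40 in KO females and 8.51, 8.55, 8.53 and 8.49 in KO GDX males, all under the KO intact males. In WT females Flt1 lay between 8.40 and 8.79, and in WT GDX males between 8.27 and 8.66. Tek, the angiopoietin receptor, gave 9.17, 9.22, 9.24 and 9.03 in KO intact males and 8.53, 8.92, 8.76 and 8.91 in WT intact males, 2 groups that did not overlap. Its other groups lay between 8.79 and 9.10 in WT females, 8.63 and 8.98 in KO females, 8.26 and 8.94 in WT GDX males, and 8.57 and 8.69 in KO GDX males. For none of these 3 receptors was the change from WT to KO called. Kdr gave -0.06 in females, 0.33 in intact and 0.17 in GDX males. Flt1 gave -0.10, 0.29 and -0.01, and Tek -0.13, 0.39 and 0.04, in the same order.

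**Figure D2:**
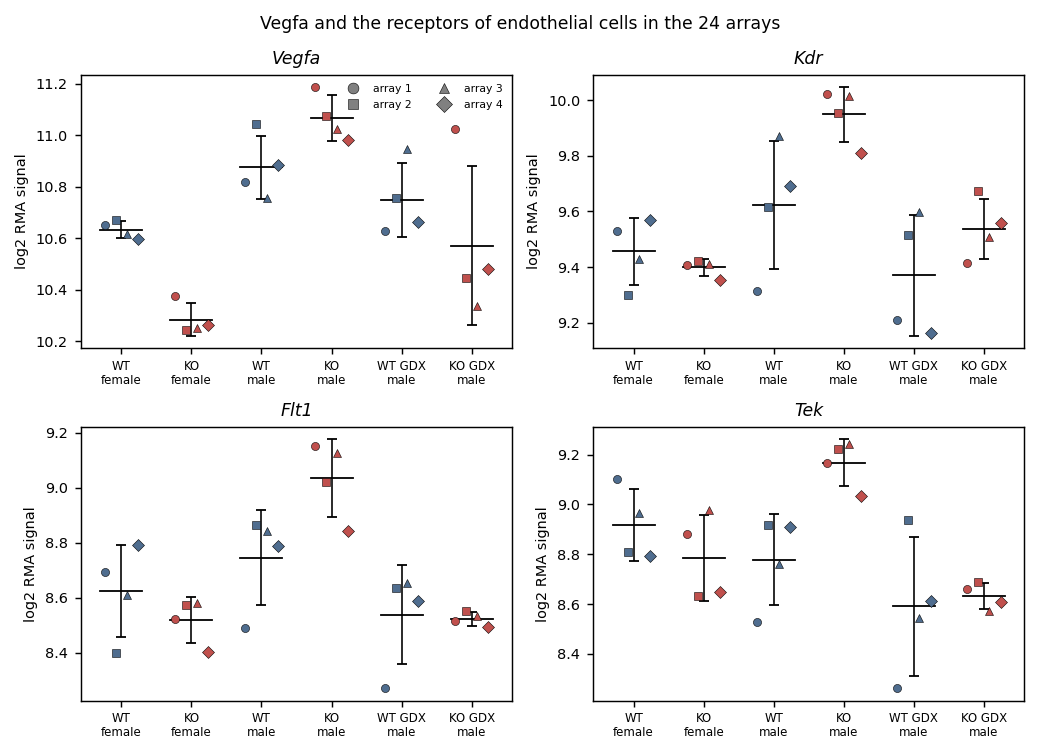
Log2 RMA signal (vertical axes, each on its own scale) of Vegfa, Kdr, Flt1 and Tek in each array of the 6 groups (horizontal axis). Blue is WT and red is KO, the symbol's shape gives the array number, and lines and bars give the mean ± SD of 4 arrays. In all 4 genes the KO intact males have the highest group mean, and WT intact male array 1 is the lowest of its group for Kdr, Flt1 and Tek.

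Cdh5, VE-cadherin of the endothelial junctions, was the endothelial surface gene that changed in KO females. WT females gave 9.78, 9.75, 9.79 and 9.62 and KO females 9.37, 9.32, 9.06 and 9.19, with no overlap. WT intact males gave 9.14, 9.68, 9.80 and 9.44, KO intact males 9.87, 9.72, 9.85 and 9.38, WT GDX males 9.26, 9.67, 10.01 and 9.43, and KO GDX males 9.41, 9.60, 9.37 and 9.28. The male groups overlapped widely. Its change was -0.50 ± 0.15 in females (adjusted p 0.0116), a 1.42-fold difference, while GDX males gave -0.18 ± 0.15 (adjusted p 0.549) and intact males 0.19 ± 0.15 (adjusted p 0.843). In RNA of a whole gland, fewer endothelial cells and less RNA per cell cannot be told apart. Pecam1, an adhesion molecule of endothelial cells, platelets and leukocytes, lay between 8.44 and 8.63 in WT females and 8.44 and 8.61 in KO females. It gave 8.23, 8.63, 8.56 and 8.59 in WT intact males and 8.88, 8.83, 8.84 and 8.54 in KO intact males, where 3 of the 4 arrays were above every other array of the series. Emcn, endomucin, a sialomucin of capillaries and veins, gave 9.72, 10.24, 10.22 and 10.35 in WT and 10.53, 10.53, 10.55 and 10.21 in KO intact males. In the other groups it lay between 9.60 and 10.23. Plvap, the protein of the diaphragms of fenestrated capillaries, lay between 7.74 and 8.79 in the 24 arrays, and the spread of its group means (0.27) was close to the SD within groups (0.25). It was the member called in none of the 12 contrasts. From WT to KO, Pecam1 differed by -0.04 in females, 0.27 in intact and 0.02 in GDX males. Emcn differed by -0.17, 0.33 and -0.03, and Plvap by -0.20, 0.12 and -0.10, in the same order, and none was called.

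**Figure D3:**
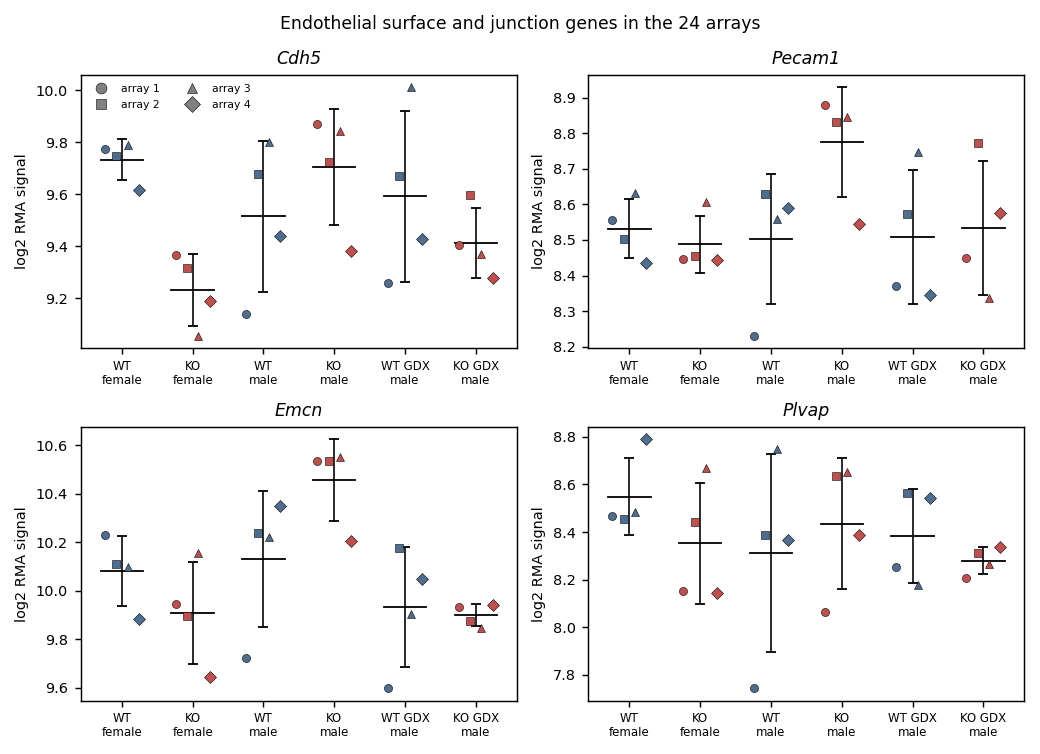
Log2 RMA signal (vertical axes, each on its own scale) of Cdh5, Pecam1, Emcn and Plvap in each array of the 6 groups (horizontal axis), drawn as in the plots of Vegfa and its receptors, with lines and bars for the mean ± SD of 4 arrays. KO females have the lowest mean for Cdh5, KO intact males are highest for Emcn and Pecam1 except their array 4, and the Plvap groups overlap.

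Between neighbours in the order of the 6 group means, the arrays overlapped for all members but Apln, where WT intact males stood above WT GDX males without overlap. The order for Cdh5 was WT females, KO intact males, WT GDX males, WT intact males, KO GDX males and KO females. For Vegfa and Flt1, both highest in KO and then WT intact males, the lowest means were those of KO females. For Aplnr the order was KO intact males, WT GDX males, WT intact males, WT females, KO GDX males and KO females.

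The first question of the design is what loss of Prkar1a does in each sex and after gonadectomy. In females 4 of the 10 members were called, beside 32.6% of all genes tested. Apln was the 1 called higher (13.9% of all genes) and Cdh5, Vegfa and Aplnr the 3 called lower (18.7%). The same 4 had no overlap between the 4 WT and 4 KO arrays, which held for 32.8% of all genes, so the share of members called is near that of all genes. The median change over the 10 members was -0.15, beside -0.02 over all genes tested. In intact males none of the 10 was called, beside 0.111% of all genes tested, that is 16 genes. At an unadjusted p under 0.05, 7 members were higher and none lower, beside 603 higher and 477 lower of all 14411 genes. All 10 differences were above 0, as were 6634 of all 14411 genes, and their median was 0.31 beside -0.01 over all genes. Apln, Aplnr and Tek had all 4 KO arrays above all 4 WT arrays, as had 2.28% of all genes. Without WT intact male array 1 the differences shrank for every member, for example from 0.39 to 0.31 for Tek, 0.29 to 0.20 for Flt1, 0.19 to 0.07 for Cdh5 and 0.12 to -0.07 for Plvap. In GDX males Apln alone was called, beside 4.23% of all genes (2.26% higher), and it alone had all KO arrays above all WT arrays (4.59% of all genes). The median change of the members was -0.02 there, beside -0.01 over all genes.

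**Figure D4:**
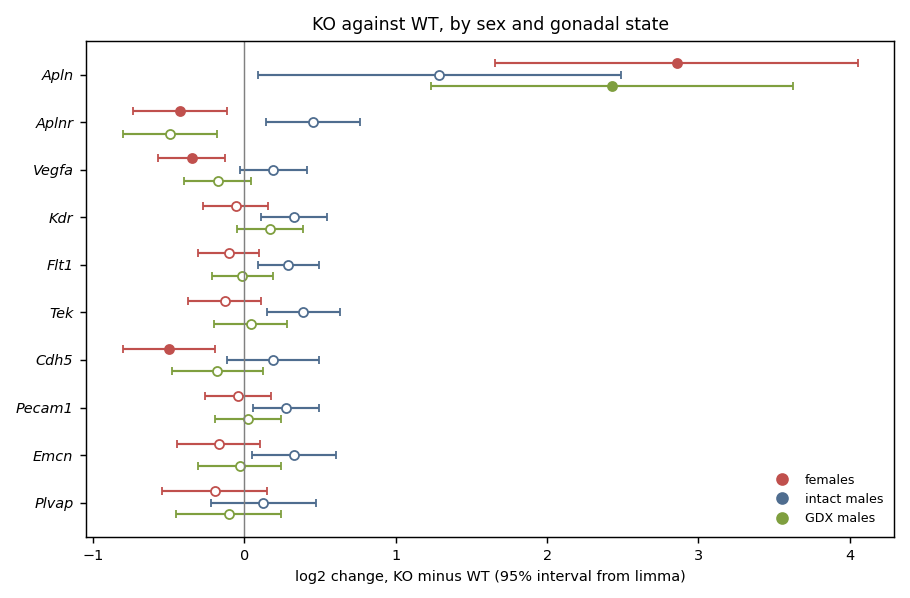
Log2 change from WT to KO (horizontal axis) with the 95% interval from limma, for the 10 members (vertical axis) in females (red), intact males (blue) and GDX males (green), 4 arrays a group. Filled points are called at an adjusted p under 0.05. Apln is called in females (2.85) and GDX males (2.43), and Aplnr, Vegfa and Cdh5 in females (-0.43, -0.35 and -0.50), while the intact male differences are all above 0 and none is called.

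The second question is how the sexes differ, and what gonadectomy does, within each genotype. Among KO mice, 8 of the 10 members were lower in females than in intact males, beside 23.1% of all genes. Besides Vegfa these were Aplnr (-0.89 ± 0.15, adjusted p 6.43e-05), Kdr (-0.55 ± 0.10, 0.000229), Flt1 (-0.52 ± 0.10, 0.000222), Emcn (-0.55 ± 0.13, 0.00222), Tek (-0.38 ± 0.12, 0.0109), Cdh5 (-0.47 ± 0.15, 0.0123) and Pecam1 (-0.29 ± 0.11, 0.0332). In 7 members no KO female reached any KO intact male, as in 20% of all genes. The Pecam1 call was lost in 6 of the fits that left out 1 array, those without KO female array 1, 2 or 4 or KO intact male array 1, 2 or 3 (adjusted p 0.0691 to 0.0885). Among KO males, 6 members were lower after gonadectomy, beside 8.59% of all genes: Aplnr (-0.62 ± 0.15, adjusted p 0.00762), Emcn (-0.56 ± 0.13, 0.00729), Tek (-0.54 ± 0.12, 0.0036), Flt1 (-0.51 ± 0.10, 0.00141), Vegfa and Kdr (-0.41 ± 0.10, 0.0106). In 5 members no KO GDX array reached a KO intact male array, as in 10.1% of all genes. Without KO GDX array 2 the same 6 members were called (adjusted p 0.00388 for Flt1 to 0.0202 for Emcn). The comparisons of KO females and of KO GDX males share the 4 KO intact male arrays, so they are not independent of each other. KO intact male array 4 was the lowest of its group for Aplnr and Emcn, so leaving it out enlarges their differences by arithmetic. Without it they were -0.95 for Aplnr and -0.63 for Emcn in females, and -0.68 and -0.64 in GDX males.

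Among WT mice Apln alone was called lower in females than in intact males (-1.99), beside 7.75% of all genes called (4.02% lower). Of the other members, Vegfa gave -0.24 and Kdr -0.17, and Plvap and Cdh5 gave 0.24 and 0.22, none of them called. Between WT GDX and intact males none was called, beside 4.5% of all genes; at an unadjusted p under 0.05, 1 member was higher (Aplnr, 0.32) and 3 were lower (Apln at -1.92, Kdr and Flt1), beside 1135 higher and 1430 lower of all 14411 genes. Without WT intact male array 1, Apln and Kdr (-0.35, adjusted p 0.0365) were called there. Between females and GDX males no member was called in WT (0.902% of all genes called; at an unadjusted p, Tek was 0.33 higher and Aplnr 0.33 lower in females) or in KO mice (18.4% of all genes; Vegfa was 0.29 lower in females, adjusted p 0.0639). In KO mice the Apln levels of females and intact males differed by -0.42, with a 95% interval of -1.62 to 0.78, which leaves room for a difference of more than 1 log2 unit. That interval uses the SD pooled over all 6 groups (0.89), KO GDX males included (SD 1.90). Within KO females the SD was 0.45, and within KO intact males 0.43.

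**Figure D5:**
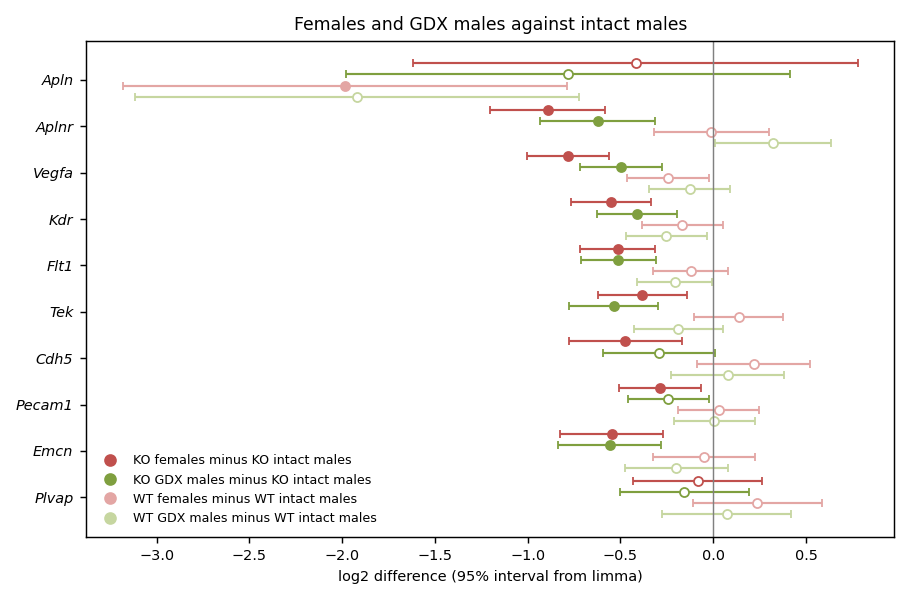
Log2 difference from intact males of the same genotype (horizontal axis) with the 95% interval from limma, for the 10 members (vertical axis) in KO females (dark red), KO GDX males (dark green), WT females (light red) and WT GDX males (light green), 4 arrays a group. Filled points are called at an adjusted p under 0.05. In KO mice 8 members are called in females and 6 in GDX males, all lower, and in WT mice Apln alone is called, in females.

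The test of whether the KO effect differs between groups was made as a difference of differences. Each KO effect is a change from controls of another genotype, so these differences hold the genotype of the controls too. Between females and intact males it was called for 4 members, all lower in females, beside 8.78% of all genes: Aplnr (-0.88 ± 0.21, adjusted p 0.00798), Cdh5 (-0.69 ± 0.21, 0.027), Vegfa (-0.54 ± 0.15, 0.0183) and Tek (-0.52 ± 0.16, 0.0343). For Apln the difference was 1.57 ± 0.81 (adjusted p 0.202), so in this fit its change was not shown to be larger in females. With only the groups of the comparison in the limma fit, the same difference was called (adjusted p 0.0207). The median over the members was -0.45, beside -0.01 over all genes tested. Without WT intact male array 1 the values for Cdh5 (-0.57, adjusted p 0.066) and Tek (-0.44, 0.0825) no longer passed the threshold, while Aplnr (-0.78, 0.0215) and Vegfa (-0.52, 0.0391) did. Other single arrays also ended the call of Cdh5 (KO female 4, KO intact male 1 or 3; adjusted p 0.0502 to 0.0574) and of Tek (WT female 1 or 3, KO female 2 or 4, WT intact male 3, KO intact male 2 or 3; 0.0522 to 0.0735). Between GDX and intact males no member was called, beside 0.0278% of all genes, though at an unadjusted p under 0.05 there were 4 lower and none higher, beside 647 lower and 714 higher of all 14411 genes. Aplnr was the largest of these at -0.94 ± 0.21 (adjusted p 0.122). Between females and GDX males no member was called, beside 3.31% of all genes, and none reached an unadjusted p under 0.05.

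Markers of other cell types were also called in these comparisons. Of all genes, 18.7% were called lower and 13.9% higher in KO than in WT females. In KO against WT females, 7 of 9 medulla (chromaffin) markers were called lower, and their mean level ran from 9.69 to 10.08 in WT and 9.01 to 9.59 in KO females. Of 8 capsule markers 6 were lower (8.15 to 8.31 in WT and 7.26 to 7.44 in KO females), and of 9 adipocyte markers 5 were lower (8.61 to 9.93 and 7.66 to 8.25). Of 10 macrophage markers 4 were higher (7.03 to 7.38 and 7.59 to 8.62), and 5 of 9 steroidogenic markers were higher (11.73 to 11.83 and 12.00 to 12.11). In KO females against KO intact males, all 9 medulla markers were lower (10.13 to 10.40 in intact males), as were 6 capsule and 3 adipocyte markers, and 4 macrophage markers were higher (7.11 to 7.59 in intact males). There 5 steroidogenic markers were higher too (11.81 to 11.93 in KO intact males), and 4 of 11 mural cell genes were lower (7.12 to 7.40 in KO intact males and 7.01 to 7.16 in KO females). Of all 14411 genes, 3336 (23.1%) were called lower and 2570 higher in that comparison. In KO GDX against KO intact males, 2 medulla and 2 capsule markers were lower, 2 adipocyte markers and 1 steroidogenic marker were higher, and no macrophage marker or mural cell gene was called. Beside these, 1238 (8.59%) of all 14411 genes were called lower and 987 higher. Cd163, Lep and Ucp1 lay at or under 5 in some arrays, and the other tested markers of these 6 lists were over 5 in all 24 arrays. The part of these cells in the members' differences was not tested.

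Other genes of the same vessels and pathways were counted in the same way. Of 25 further endothelial genes, 2 were called lower in KO than in WT females, beside 18.7% of all genes. They were Sox17 (-0.29 ± 0.10, adjusted p 0.0223), a transcription factor of arteries, and Vwf (-0.24 ± 0.09, 0.0384), the von Willebrand factor. In KO females against KO intact males 10 of the 25 were lower, beside 23.1% of all genes, with a median of -0.23. Cd34 (-0.71), Sox17 (-0.63), Tie1 (-0.54) and Esam (-0.44) had the largest differences of these 10. Of the 25 genes, 4 were above 0, the highest at 0.71, and none of them was called. In KO GDX against KO intact males 9 of the 25 were lower, beside 8.59% of all genes, with a median of -0.21. Cd34 (-0.47), Sox17 (-0.46), Sox18 (-0.43) and Tie1 (-0.40) had the largest differences of these 9. Here 3 of the 25 were above 0, the highest at 0.65, and none of them was called. In KO against WT intact males none of the 25 was called, and 23 differences were above 0, beside 6634 of all 14411 genes. The mean level of the 25 genes was 6.72 in WT intact male array 1, 6.98 to 7.05 in the other 3 WT and 6.98 to 7.18 in the KO intact males. Without that array 22 of the 25 differences were above 0, and their median went from 0.18 to 0.08.

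Of 10 tested partners of the VEGF, angiopoietin and apelin systems, Nrp2, a co-receptor of VEGF-C, fell by 0.74 ± 0.14 in KO females on the log2 scale (adjusted p 0.00026) and Vegfc, a growth factor of lymphatic vessels, rose by 0.52 ± 0.12 (adjusted p 0.00189). In KO females against KO intact males, Vegfd (1.24) and Vegfc (0.90), the ligands of the lymphatic receptor, were higher while Nrp2 (-0.80), Tie1 and Ptprb (-0.28) were lower. The last 2 stand in both lists. Vegfd was also higher in WT females (0.67, adjusted p 0.0326) and WT GDX males (0.80, 0.0181) than in WT intact males, as the only gene of these partners called there. Pgf, another ligand of FLT1, was under 5 in all 24 arrays. Of 9 Notch, arterial and venous genes, Nr2f2 (-0.47), Heyl (-0.31) and Notch1 (-0.21) were lower and Efnb2 (0.41) was higher in KO than in WT females; Nr2f2 is also expressed by capsule cells and stands in that list too. Of 4 lymphatic genes, Lyve1 rose by 1.11 ± 0.24 (adjusted p 0.00146) and Prox1 fell by 0.72 ± 0.16 (adjusted p 0.00118) in KO females. Lyve1 is also a gene of tissue macrophages. Of 11 mural cell genes, Rgs5 (-0.99), Cspg4 (-0.55), Des (-0.49) and Pdgfrb (-0.34), genes of pericytes and smooth muscle, were the 4 called lower in KO females. Beside these lists, 18.7% of all genes were called lower and 13.9% higher in KO than in WT females.

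Of 16 genes of the hypoxia response, to which Vegfa also belongs, 5 were lower and 2 higher in KO than in WT females. The list thus had no common direction, and of all genes 18.7% were called lower and 13.9% higher. Egln3 (-1.23), Ldha (-0.63) and Pdk1 (-0.56) were among the lower and Ero1a (0.73 ± 0.07, adjusted p 3.6e-07) was among the higher. In GDX males Ero1a was the 1 gene of the list called (0.33 ± 0.07, adjusted p 0.0139), beside 4.23% of all genes. In KO females against KO intact males 3 of the 16 were lower and 4 higher, beside 23.1% of all genes lower and 2570 of 14411 higher. Adm (-1.04), the gene of adrenomedullin, and Ndrg1 (-0.86) were among the lower. Bnip3 (0.58) and Ero1a (0.57) were among the higher. Ndrg1 (-0.55, adjusted p 0.0166) and Bnip3 (0.61, 0.00089) were also called in WT females against WT intact males. They were the only genes of the list called there, beside 7.75% of all genes. Bnip3 was higher in WT GDX than in WT intact males too (0.60, adjusted p 0.00263), where 4.5% of all genes were called.

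Which genes follow the members most closely was asked by distance: the root-mean-square difference of the centred log2 signals over the 24 arrays. Nearest to Apln was Xpnpep2, the gene of a membrane aminopeptidase, at 0.867, where the root-mean-square deviation of Apln itself was 1.505. The next were St8sia5, Tmem163, Megf10 and G6pc, at 0.938 to 1.02. Xpnpep2 signals in the KO GDX males were 5.13, 4.83, 7.41 and 7.59, low and high in the same arrays as Apln. In WT females they were 4.43 to 4.76 and in KO females 6.26 to 7.02. Xpnpep2 changed by 1.93 ± 0.44 in KO females (adjusted p 0.00181) and 1.53 ± 0.44 in KO GDX males (adjusted p 0.0483), and gave 0.98 ± 0.44 in KO intact males (adjusted p 0.63). Nearest to Aplnr were Lrrk1, AU020206, Abca8a, Cd200 and Paqr4, at 0.205 to 0.213 against its own 0.354. Nearest to Cdh5 were Gsn, Prex2, Capn2, Fas and Piezo1, at 0.139 to 0.153 against 0.256. None of these 10 neighbours is among the further endothelial genes listed here. The members themselves were left out of the search, so none of them could appear. Genes with only a Gm, LOC, Rik or numeral symbol were left out too. Gsn, the actin-severing gelsolin, fell by 0.63 ± 0.15 in KO females on the log2 scale (adjusted p 0.00298), and Lrrk1 fell by 0.45 ± 0.09 (adjusted p 0.000697).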

How the data were processed

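RNA of whole adrenal glands was measured on Affymetrix mouse gene arrays, 24 arrays in 6 groups of 4. Per the labels, 500 ng of total RNA was labelled with the WT PLUS kit. The deposited values are log2 signals, which per the submitters' processing notes were made by RMA; no version or genome build is given in the sources used here. Array medians were 5.20 to 5.29, and the number of arrays limits the precision. Each gene is represented by its probe set of 1 symbol with the highest mean. Genes over 5 (log2) in at least 4 arrays, 14411 of 21957, were tested with limma 3.58.1 (R 4.3.3), in 1 model of 6 group means and 12 contrasts, with eBayes (18 residual and 3.41 prior degrees of freedom) and Benjamini-Hochberg adjustment at 0.05. The fit was tested on simulated data. Symbols and positions come from the array annotation and RefSeq (GRCm38.p6). The members, the 12 further lists and the tests were chosen with earlier results of these data known. Of 135 list genes, 125 matched. The text names all 10 members, up to 4 called genes of a list with the largest changes, and the 5 nearest patterns of Apln, Aplnr and Cdh5; genes dim in all arrays and the neighbours of Apln were named after their values were seen. Alternatives were other filters, probe set rules, normalization, eBayes settings, models, a block by replicate number and leaving out each array. No batches by hybridisation or scan were used here.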

Additional observations from a re-analysis of the deposited data

Results flagged for a closer look

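In 7 of the 60 combinations of a member and a group, 1 array lay far from the other 3 (a gap above the 95% critical value of Dixon's test, which chance exceeds in about 1 of 20 groups). Apln of WT intact male array 1 was 5.89, with the others at 7.23 to 7.45. In the KO intact males array 4 was the low one for Emcn (10.205, the others 10.53 to 10.55) and for Pecam1 (8.54, the others 8.83 to 8.88). In the KO females the array apart was array 4 for Kdr (9.35, low), array 3 for Pecam1 (8.61, high) and array 1 for Vegfa (10.38, high). In the WT females array 4 was high for Plvap (8.79).

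The change from WT to KO differed between females and intact males for Aplnr (-0.88), Cdh5 (-0.69), Vegfa (-0.54) and Tek (-0.52), by the adjusted p of the difference of differences in limma (0.00798, 0.027, 0.0183 and 0.0343). The female and intact male controls differed in genotype.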

How the results depend on the processing

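Over 31 alternatives there were 2040 log2 changes of members: 1938 kept direction and side of the threshold, 33 lost a call and 23 gained one. The other 46 changed sign, none of them called with or without the alternative; without WT intact male array 1, for example, WT GDX against intact males went from 0.08 to -0.05 for Cdh5 and from 0.07 to -0.12 for Plvap. Another round of quantile normalization gave 1 member called between KO females and KO GDX males (Vegfa). With only the groups of a comparison in the fit, the number called was 0 for KO against WT in GDX males and 1 for WT GDX against intact males (Apln in both). Apln was then also called in the KO effect of females minus intact males (1.57, adjusted p 0.0207). Leaving out 1 array at a time moved the number of members called to 0 to 3 (KO against WT in GDX males), 0 to 1 (WT females against intact males), 0 to 2 (WT GDX against intact males), 2 to 6 (KO effect, females minus intact males), 0 to 2 (KO effect, GDX minus intact males) and 0 to 1 (KO females against GDX males). In the KO effect of GDX minus intact males, Aplnr was called without WT GDX array 1 (-1.03, adjusted p 0.0483) or KO GDX array 1 (-1.005, adjusted p 0.0457), and Vegfa without KO GDX array 1 (-0.52, adjusted p 0.0331). In that of females minus intact males, 6 were called without KO intact male array 4, Emcn (adjusted p 0.0429) and Flt1 (0.03) among them, and 2 without WT intact male array 1. The cause was not tested.

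No common pairing of the arrays by replicate number was seen. The deviations of same-numbered arrays correlated at -0.32 to 0.24 (median 0.005, 60 pairs, 16 of them over 0.1), and 8 of 24 arrays correlated best with their own number. A batch shared by some of the arrays was not tested. A fit with the replicate number as a block gave the same number of members called in all 12 contrasts (4 of 10 for KO against WT in females). Signals near 5, as for Apln in WT females, limit what size of change can be read.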

Other observations

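Xpnpep2, the nearest gene to Apln in pattern, is also its neighbour: it lies on chrX:48106913-48136982 (GRCm38.p6), 72059 bases from Apln, and no other tested gene lies between them. Of the 11 tested genes within 500 kb of Apln, Apln included, 5 were called higher in KO than in WT females, beside 13.9% of all genes. They were Apln, Xpnpep2, Smarca1 (1.25 ± 0.16, adjusted p 5.75e-06), Zdhhc9 (0.63 ± 0.09, adjusted p 1.5e-05) and Rab33a (0.54 ± 0.19, adjusted p 0.0312). Apln and Xpnpep2 are the genes for which the window was chosen. In GDX males Apln, Xpnpep2 and Smarca1 (0.80 ± 0.16, adjusted p 0.00682) were called higher, beside 2.26% of all genes. Ocrl, which lies between Smarca1 and Apln, gave -0.01 ± 0.10 in females and 0.10 ± 0.10 in GDX males. Smarca1, a chromatin remodeller of the ISWI family, gave 0.15 ± 0.16 in intact males (adjusted p 0.905). Among WT mice it was lower in females than in intact males by 0.82 ± 0.16 on the log2 scale (adjusted p 0.00202) and lower in GDX than in intact males by 1.08 ± 0.16 (adjusted p 0.000426). Not all neighbours had that direction: in WT females against intact males Aifm1 was higher by 0.33 ± 0.09 (adjusted p 0.0343), Rab33a gave 0.54 ± 0.19 (adjusted p 0.0833) and Xpnpep2 -0.30 ± 0.44 (adjusted p 0.75), and in WT GDX against intact males Xpnpep2 gave -0.20 ± 0.44 (adjusted p 0.867). These neighbours were looked at after the values of Xpnpep2 had been seen, and no test of the locus as a whole was made.

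The KO GDX arrays in which Apln was low (arrays 1 and 2) and high (arrays 3 and 4) had Prkar1a signals of 7.99, 7.66, 7.30 and 7.45 in the order 1 to 4, against 8.59 to 8.94 in WT GDX males. The arrays were split after the Apln values had been seen and are only 4. A relation between the Apln and Prkar1a signals was not tested.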
